A study of Mus musculus with 16 samples.

Results

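The genes described here are the nuclear-encoded subunits of the mitochondrial respiratory chain and of ATP synthase, followed across epithelial populations sorted from mammary glands of Cpeb2 knockout and wild-type mice. They were taken from the array annotation by symbol: all genes starting with Ndufa, Ndufb, Ndufc, Ndufs, Ndufv, Uqcr, Atp5, Cox4i, Cox5, Cox6, Cox7 or Cox8, together with Sdha, Sdhb, Sdhc, Sdhd and Cycs, and without the assembly factors named Ndufaf. The rule found 81 members among the 17097 genes measured. Of these, 33 belong to complex I, 4 to complex II, 7 to complex III, 19 to complex IV (Ndufa4 and Ndufa4l2 counted there), 17 to complex V, and Cycs is cytochrome c. A group of 8 are forms usually restricted to certain tissues (Cox4i2, Cox6a2, Cox6b2, Cox7a1, Cox7b2, Cox8b, Cox8c and Ndufa4l2), and the other 73 are called common here. Symbols are those of the array annotation, and Ndufs5-ps carries the name of a pseudogene.

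The study used 4 female mice of the line DMI, strain C57BL/6J 129, aged 10 weeks and 2 days. Cpeb2, an RNA-binding protein of the cytoplasmic polyadenylation element-binding family, was deleted in 2 mice (Cpeb2 -/-) and intact in 2 (Cpeb2 +/+). All 4 mice carried Sox2-Cre +/+, which drives recombination in the early embryo, so the wild-type mice carried the Cre too and the deletion was not limited to the mammary epithelium. Mouse 1 of each genotype came from the same parents, and so did mouse 2. Each mouse gave 4 freshly sorted, untreated populations: non-clonogenic luminal cells, ductal progenitors, alveolar progenitors (these luminal) and myoepithelial cells. This makes 8 groups of 2 arrays and 16 arrays in all, with 1 array for each mouse and population. All values are log2 expression values, so a difference of 1 is a doubling of the array signal.

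The respiratory chain passes electrons from NADH (complex I) or succinate (complex II) by way of complex III and cytochrome c to oxygen at complex IV, and pumps protons across the inner mitochondrial membrane. ATP synthase, complex V, lets the protons flow back and makes ATP. Most subunits are encoded in the nucleus and a smaller core by the mitochondrial genome, whose genes are not among the members. In the mammary gland the luminal cells line the ducts and can become milk-secreting, and the myoepithelial cells around them contract to eject milk.

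Many promoters of these genes are known to hold sites for the factors NRF1, YY1, ERR and the ETS family, and stretches of some are printed to show what such letters look like just before the transcription start of members used below. RefSeq promoter windows (build GRCm38.p6, 250 bases before to 50 after each start) were matched by symbol for 65 of the 81 members. The stretches run from 80 to 21 bases before the start, and capitals mark the NRF1 word GCATGCGC or its reverse complement GCGCATGC, which overlap in 3 of them, or, in Atp5g3 alone, the ERR word CAAGGTCA read from the other strand as TGACCTTG.
Atp5k (subunit e of ATP synthase), chr5:108434420-108434479, minus strand: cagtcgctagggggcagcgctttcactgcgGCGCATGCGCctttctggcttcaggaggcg
Ndufa11 (accessory subunit of complex I), chr17:56717682-56717741, plus strand: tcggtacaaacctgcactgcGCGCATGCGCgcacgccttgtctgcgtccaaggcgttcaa
Atp5g3 (a gene of the c ring of ATP synthase), chr2:73911347-73911406, minus strand: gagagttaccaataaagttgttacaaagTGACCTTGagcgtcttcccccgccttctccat
Cycs (cytochrome c), chr6:50566590-50566649, minus strand: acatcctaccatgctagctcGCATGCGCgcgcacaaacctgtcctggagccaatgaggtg
Sdhb (iron-sulphur subunit of complex II), chr4:140961191-140961250, plus strand: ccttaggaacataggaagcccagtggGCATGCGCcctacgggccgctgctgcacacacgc
Atp5g2 (a second gene of the c ring), chr15:102671068-102671127, minus strand: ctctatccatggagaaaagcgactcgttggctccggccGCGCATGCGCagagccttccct

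Over the whole windows and both strands, the NRF1 word stood in 11 of the 65 members (16.9%) and in 4.62% of the 13605 measured genes with a window. The YY1 word AAGATGGCG stood in 7 members (10.8%, against 2.57%), the ERR word in 3 (4.62%, against 1.55%) and the ETS word CCGGAAGT in 4 (6.15%, against 6.67%). The YY1 words of these members lay after the start, between 22 and 44 bases from it, except that of Atp5j. The GC-rich SP1 word GGGCGG stood in 28 members (43.1%, against 57.3%). These shares are a description and were not tested. Of the members that were lower in the knockout mean described further on, 7 of 19 with a window held at least 1 of the NRF1, YY1, ERR and ETS words (36.8%), and so did 16 of the 42 common members that were not called there (38.1%). Atp5k, Ndufa11 and Atp5g3 are among the called members, and Cycs, Sdhb and Atp5g2 are not.

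The arrays were alike in scale, with medians of 6.35 to 6.40, and arrays of the same group correlated at 0.975 to 0.991 over all genes. The mean level of the common members over the 16 arrays lay between 8.16 and 12.2, and that of the restricted forms between 4.43 and 7.73, where the median gene had 6.97. A total of 80 members exceeded every array's lower quartile on all 16 arrays, and the exception was Cox7b2. The defining markers followed the sort: the mean of the myoepithelial list (Krt5, Krt14, Acta2 and others) was 12.0 to 12.2 in myoepithelial cells and 6.09 to 7.09 in luminal arrays, and the alveolar list was 10.3 to 10.8 in alveolar progenitors against 8.38 to 9.52 in ductal progenitors and 6.25 to 6.48 in the others. Leukocyte markers stayed between 5.25 and 5.60 throughout. The Cpeb2 probe set read 8.33 and 8.66 in wild-type and 6.42 and 7.67 in knockout non-clonogenic luminal cells, and 7.88 and 8.00 against 6.39 and 7.35 in ductal progenitors. It was lower in the other populations, at 5.52 and 5.53 against 5.45 and 4.81 in alveolar progenitors and at 5.41 and 6.03 against 5.25 and 4.71 in myoepithelial cells. Its mean knockout difference over the populations was -0.92 ± 0.21 (SE; limma adjusted p = 0.0201), and it was not called within a single population. Where the probe set lies relative to the deletion is not known.

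An array of the myoepithelial cells stood apart in several measures. The myoepithelial array of wild-type mouse 2 had a median deviation of the members from their own 16-array means of 0.09, against -0.52 in the other wild-type myoepithelial array and -0.62 and -0.80 in the knockout arrays. On the same array the mean of 34 cell-cycle genes was 8.50, against 7.33 in the other wild-type myoepithelial array and 6.70 and 6.72 in the knockout arrays. This mean was lower in the knockout in every population, and wild-type luminal arrays read 8.19 to 9.43. With 2 wild-type myoepithelial arrays it cannot be told which of them is unusual in these genes. The mean of the cytosolic ribosomal protein genes was 12.45 on that of mouse 2, against 12.00 to 12.12 in the other myoepithelial arrays. The Actb 3' minus 5' difference of this mouse 2 array, -0.42, was the lowest of a range of -0.42 to -0.06, with the next array at -0.37. Its other RNA quality measures lay inside the range of the other arrays, such as Gapdh 3' minus 5' at -0.26 (range -0.39 to -0.24). Its gap to the nearest array in the median over all members was 0.694 of the range of the 4 myoepithelial arrays, below Dixon's critical value, which it passed for complexes III and V, and arrays of other populations passed it for single sets of members too. The part of these differences in the members' values was not tested, and results that rest on this array are given with and without it.

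Differences between populations came first in size. A gene was called where the limma test over all 17097 genes gave a Benjamini-Hochberg adjusted p under 0.05. The level of 64 members (79.0%) differed between the 4 populations with both genotypes averaged, and 49.8% of all genes did. These were 28 of complex I, 3 of complex II, 5 of complex III, 15 of complex IV and 13 of complex V. The mean was lowest in myoepithelial cells for 70 of the 81 members and highest in non-clonogenic luminal cells for 69. For 55 members the means fell in the order non-clonogenic luminal, ductal progenitor, alveolar progenitor, myoepithelial. In these sorted bulk samples fewer cells of a type and less RNA per cell cannot be told apart.

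**Figure D1:**
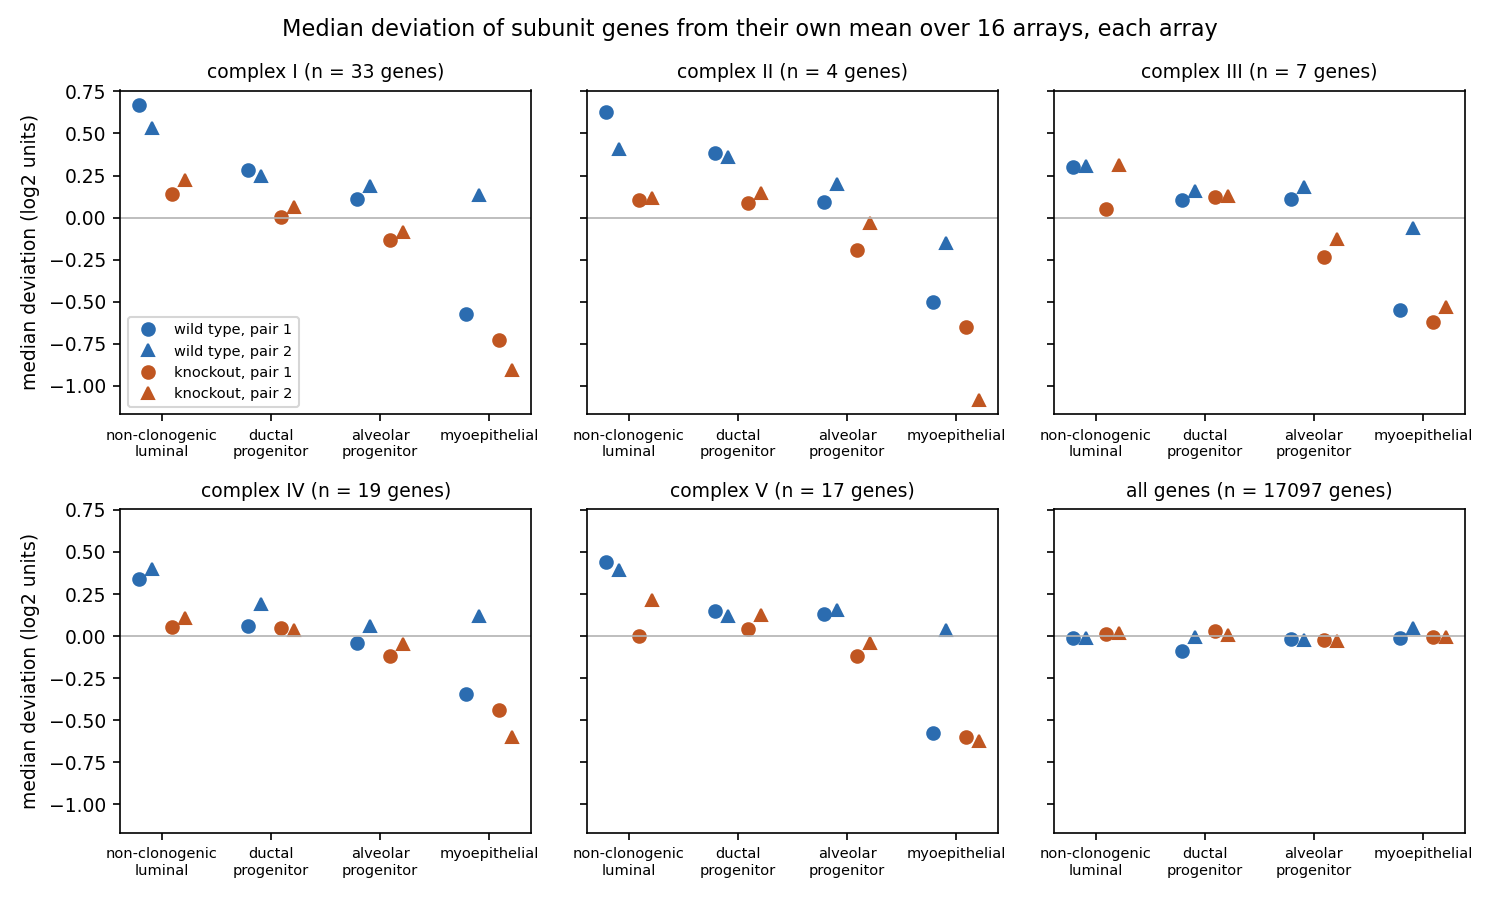
Each point is the median, over the members of a complex on a single array, of the deviation from each member's own 16-array mean (log2 units), by population and genotype, with a panel for all genes. In each of complexes I to V, 3 of the 4 myoepithelial arrays lie below all luminal arrays and that of wild-type mouse 2 does not. The median of that array over all members is 0.09.

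Against non-clonogenic luminal cells, the myoepithelial cells had 65 members called lower and 3 higher, 68 in all (45.0% of all genes were called, 23.7% lower). The median difference was -0.76 over the members and 0.01 over all genes. In complex I, 30 of 33 members were lower (median -0.92), and only Ndufa8, Ndufs1 and Ndufa11 were not called. In complex II, 3 of 4 were lower (median -1.19), the exception being Sdhb at 0.06. In complex III, 5 of 7 were lower (median -0.69), all but the core subunit Uqcrc1 and Uqcrq. In complex IV, 13 were lower and 3 higher of 19 (median -0.64), and in complex V 13 of 17 were lower (median -0.64).

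Sdha, the flavoprotein that oxidises succinate, had the smallest adjusted p in this comparison. Its mean was 11.55 ± 0.33 in non-clonogenic luminal cells, 11.40 ± 0.24 in ductal progenitors, 11.01 ± 0.11 in alveolar progenitors and 10.02 ± 0.46 in myoepithelial cells (SD, n = 4 mice, genotypes pooled). All 4 myoepithelial arrays, at 10.43, 10.41, 9.58 and 9.67, lay below all 12 luminal arrays, whose lowest was 10.87. The myoepithelial minus non-clonogenic luminal difference was -1.53 ± 0.11 (SE; limma adjusted p = 1.91e-07). A second probe set of Sdha with a similar mean level (10.92, against 10.99 for the one used) gave a far smaller difference in the same direction, -0.34 ± 0.08 (limma adjusted p = 0.00474 over all named probe sets). In all, 6 members (7.41%) showed such a complete separation, close to the 7.22% of all genes that did, the others being Ndufb3 of complex I, Uqcrc2 and Uqcrfs1 of complex III, and Cox6b1 and Cox7a1 of complex IV.

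Cox7a2, the common form of a small subunit of complex IV, fell from 12.64 ± 0.21 through 12.40 ± 0.07 and 12.13 ± 0.18 to 11.60 ± 0.36 in the same order of populations, a difference of -1.03 ± 0.07 between the ends (SE; limma adjusted p = 2.55e-07). Ndufv3, an accessory subunit at the NADH-binding end of complex I, went from 11.38 to 9.65 ± 0.79, a difference of -1.73 ± 0.16 (limma adjusted p = 3.10e-06). The widest gap in complex I was that of Ndufa7, at -1.84. In complex III, Uqcr10 differed by -1.51 and Uqcr11 by -1.50, both small accessory subunits. In complex V the widest was Atp5k, at -1.22, next to Atp5e, the epsilon subunit of the central stalk, at -1.21. Cycs was lower by -0.58 ± 0.18 (limma adjusted p = 0.0202).

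**Figure D2:**
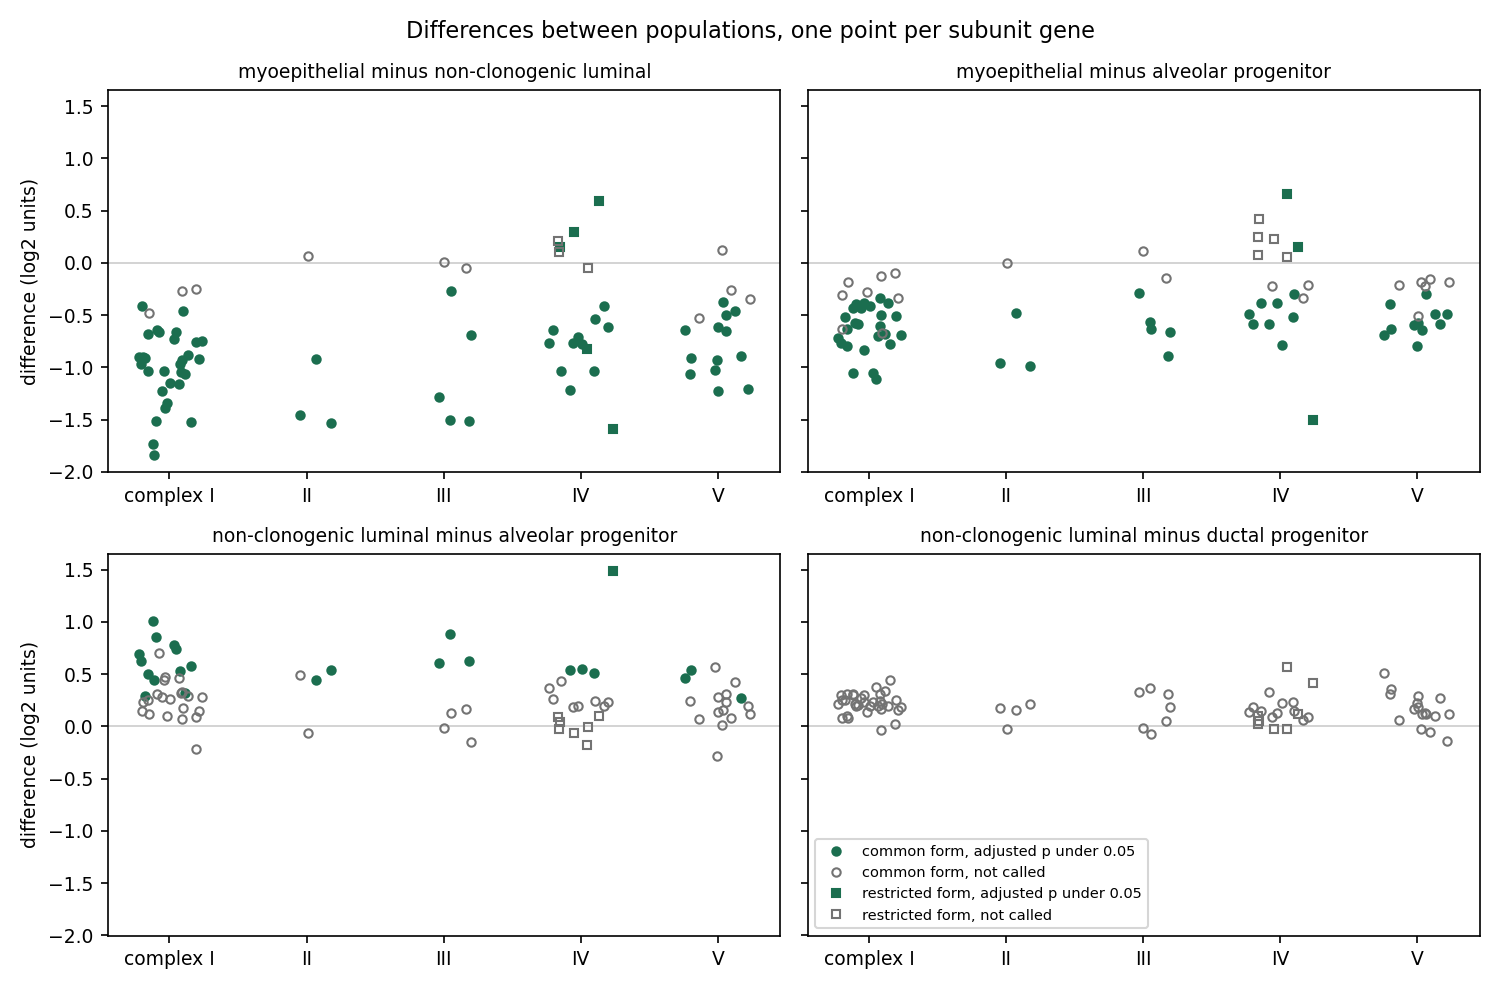
Each point is a member's fitted difference between a pair of populations (log2 units), arranged by complex without cytochrome c, filled where called, with squares for restricted forms and a panel for each of 4 comparisons. For myoepithelial minus non-clonogenic luminal cells the medians are -0.92 in complex I, -1.19 in II, -0.69 in III, -0.64 in IV and -0.64 in V, beside 0.01 over all genes.

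ATP synthase has a catalytic head, turned by a central stalk, and a membrane part held to it by a peripheral stalk. Of the 5 head and central-stalk genes (Atp5a1, Atp5b, Atp5c1, Atp5d, Atp5e), 2 were called lower (median -0.35), and of the 12 genes of the membrane part and peripheral stalk, 11 were (median -0.77). Within complex I, 5 of the 6 core subunits and 25 of the 27 accessory subunits were lower. These divisions were chosen after values were seen, and the difference between them was not tested.

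The comparison held the same direction against the other luminal populations. Against ductal progenitors, 59 members were lower and 2 higher, 61 in all (41.7% of all genes called, 21.4% lower), with a median of -0.63. Against alveolar progenitors, 54 were lower and 2 higher, 56 in all (36.5% called, 18.3% lower), with a median of -0.49. These comparisons share the myoepithelial arrays. Sdha led both with the probe set used, at -1.38 ± 0.11 and -0.99 ± 0.11 (SE; limma adjusted p = 5.86e-07 and 1.35e-05), and its second bright probe set gave -0.42 ± 0.08 and -0.51 ± 0.08.

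Within single mice, the myoepithelial array lay below all 3 luminal arrays of the same animal for 70 members in wild-type mouse 1, where 30.8% of all genes did. It did so for 66 in knockout mouse 1 (34.2% of all genes) and for 75 in knockout mouse 2 (33.5%). In wild-type mouse 2, whose myoepithelial array stood apart, only 33 members did (27.6% of all genes). The median difference from the mean of the 3 luminal arrays was -0.78, -0.64, -0.86 and -0.15 in that order of mice. Without the array that stood apart, 72, 70 and 66 members were called against the 3 luminal populations. Leaving out a whole knockout mouse reduced the counts against ductal progenitors to 36 (mouse 1) and 28 (mouse 2), against alveolar progenitors to 18 and 8, and over the 4 populations to 39 and 30. Against alveolar progenitors, 34 were called without the alveolar array of knockout mouse 2, 36 without that of wild-type mouse 2 and 30 without the myoepithelial array of knockout mouse 2. The share of all genes called in these fits is not given, so a change in count may not be particular to the members. Markers of other cells moved with the contrast between myoepithelial and luminal cells. The endothelial list averaged 6.22 to 7.13 in myoepithelial and 5.66 to 6.20 in luminal arrays. Within it Vwf went the other way, at -2.47 against non-clonogenic luminal cells and -1.96 against ductal progenitors, and all other called endothelial genes were higher. The fibroblast list averaged 6.79 to 7.03 in myoepithelial arrays and 5.67 to 7.88 in luminal arrays. The part of these markers in the members' values was not tested.

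Among luminal cells the differences were smaller. No member was called between non-clonogenic luminal cells and ductal progenitors by limma (0.795% of all genes were), while 10 of 81 had an unadjusted p under 0.05, each higher in non-clonogenic luminal cells (6.42% of all genes passed in either direction), and every other fit run gave 0 calls too. Against alveolar progenitors, non-clonogenic luminal cells had 24 members called higher and 0 lower (15.9% of all genes were higher), namely 12 of complex I, 2 of complex II, 3 of complex III, 4 of complex IV and 3 of complex V. Ductal progenitors had 9 of the 81 members called higher than alveolar progenitors, a share close to the 11.3% of all genes that were higher. They were Cox6b2, Ndufv3, Cox7a2, Sdha, Ndufc1, Ndufb11, Ndufv2, Ndufa1 and Cox8a. Sdha was called higher than in alveolar progenitors in both comparisons by the probe set used only: its second bright probe set gave -0.17 ± 0.08 for non-clonogenic luminal and -0.09 ± 0.08 for ductal cells (SE; limma adjusted p = 0.138 and 0.490). The members called higher in ductal than in alveolar cells had 7 other probe sets with a mean above 8. Of these, 6 had the same sign and 1 was called too by limma. For non-clonogenic luminal against alveolar cells, 19 of 20 had the same sign and 15 were called too. The median was 0.27 for non-clonogenic luminal minus alveolar cells. The values for Ndufv3 were 1.01 ± 0.16 and 0.64 ± 0.16 (SE), and those for Cox7a2 were 0.51 ± 0.07 and 0.28 ± 0.07.

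The counts among luminal cells moved with the arrays used. The share of all genes called in each fit is not given, so these changes may not be particular to the members. The myoepithelial arrays are not part of these comparisons, but they add to the estimate of spread that all arrays share. Between non-clonogenic luminal and alveolar cells, 42 members were called without either wild-type myoepithelial array, 4 and 6 without knockout mouse 1 or 2, and 12 to 15 without the non-clonogenic luminal array of wild-type mouse 1 or knockout mouse 2, the alveolar array of wild-type mouse 1, or that of either knockout mouse. For ductal against alveolar progenitors, 16 were called without either wild-type myoepithelial array, 1 without either knockout mouse, and 2 to 5 without any of the 8 arrays of these populations.

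In the knockout the members were lower on average, with the highest share of calls in complex I. Averaged over the 4 populations, 22 of the 81 members were called lower and 0 higher (27.2%), where 10.2% of all genes were called and 7.04% were lower. The median difference was -0.29 over all members and -0.33 over the common ones, against 0.03 over all genes. The sign was negative for 72 of the 73 common members, Cox4i1 being the exception at 0.02, and for 2 of the 8 restricted forms. By complex, 13 of 33 were lower in complex I (39.4%; median -0.35), 1 of 4 in complex II (median -0.32), 0 of 7 in complex III (median -0.16), 3 of 19 in complex IV (median -0.20) and 5 of 17 in complex V (median -0.22). The difference between complexes was not tested. Genotype varied only between mice, 2 against 2. With a mouse correlation of 0.0383 the fit treated the 4 arrays of a mouse as nearly independent. The SE and adjusted p of each mean knockout difference therefore rest largely on the spread between arrays, not on that between mice.

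**Figure D3:**
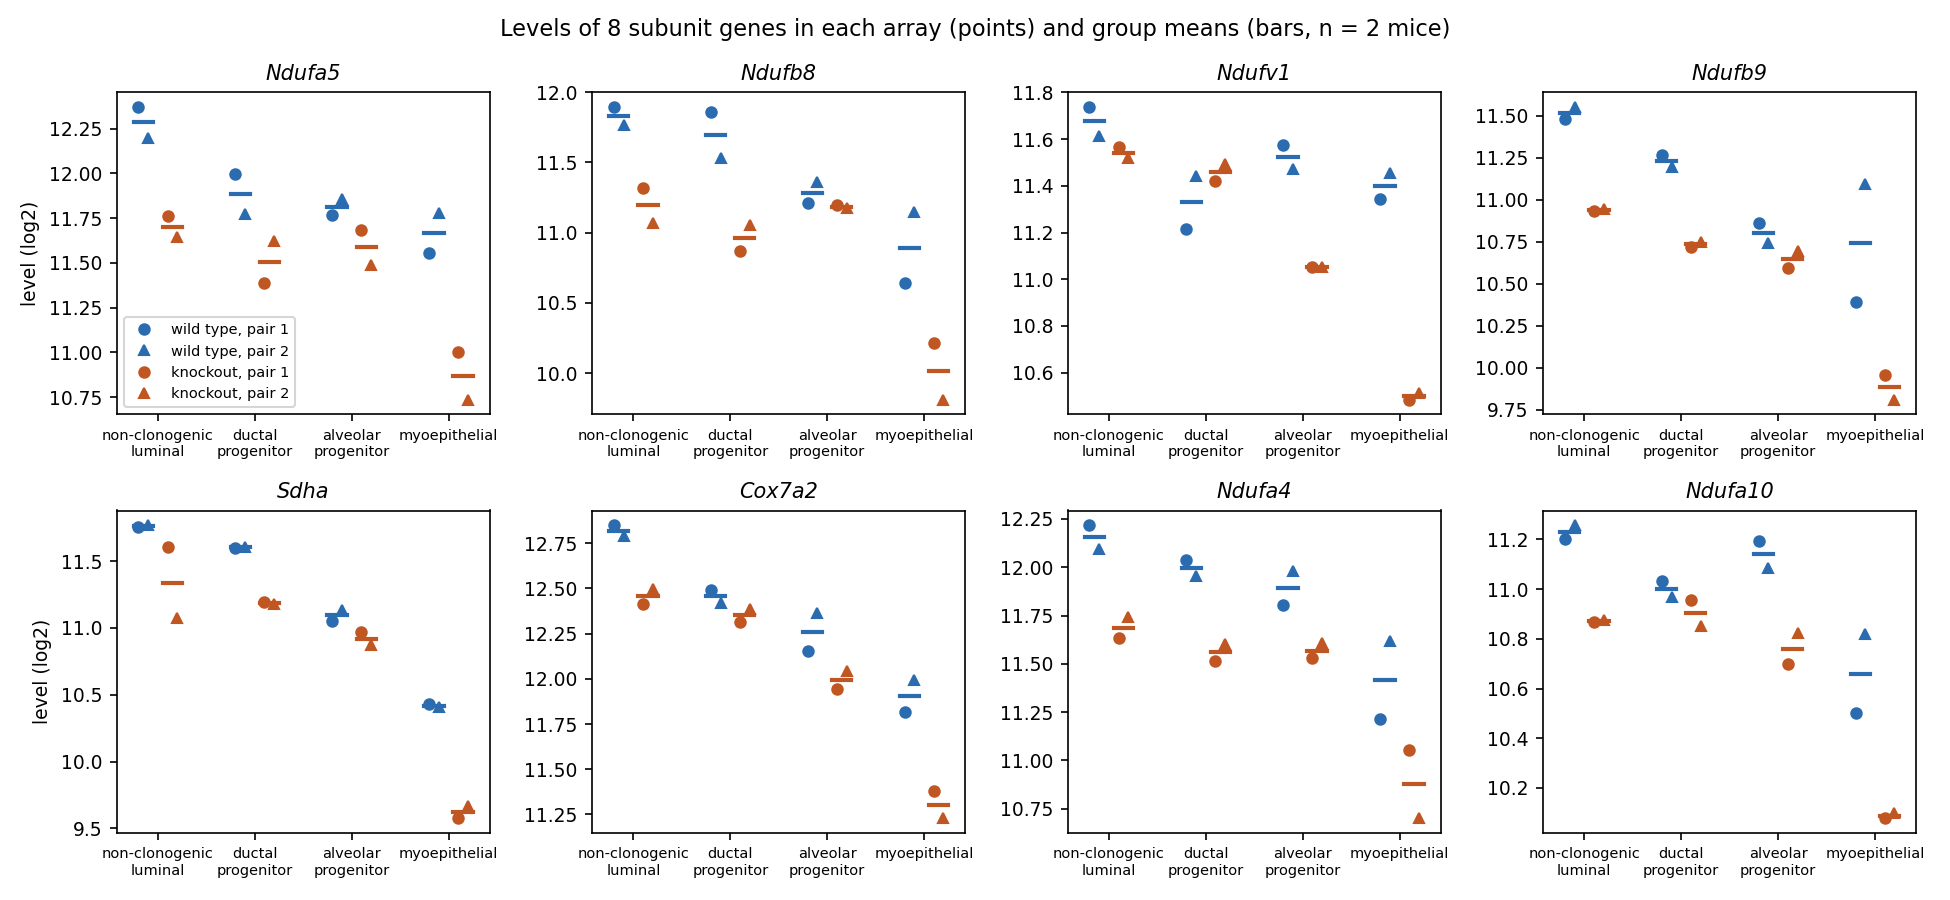
Values of the 8 members with the smallest adjusted p in the mean knockout difference on every array (log2 expression), by population, with genotypes in separate colours, parent pairs as circles and triangles, and bars for group means (n = 2). The knockout arrays lie below the wild-type array of the same parents in every population for 7 of them, and not for Ndufv1 in ductal progenitors. These members were picked by their adjusted p on the same arrays. Over all members 24.7% were lower in all 8 such differences, and over all genes 4.29% were.

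Ndufa5, an accessory subunit of the peripheral arm of complex I, had the smallest adjusted p. In wild-type mice 1 and 2 it read 12.37 and 12.20 in non-clonogenic luminal cells, where the knockout mice had 11.76 and 11.64. In ductal progenitors it read 11.99 and 11.77 against 11.39 and 11.62, in alveolar progenitors 11.77 and 11.86 against 11.68 and 11.49, and in myoepithelial cells 11.56 and 11.78 against 11.00 and 10.74. The genotypes did not overlap in any of the 4 populations, and the mean difference was -0.50 ± 0.08 (SE; limma adjusted p = 0.00287).

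Ndufb8, an accessory subunit of the membrane arm of complex I, read 11.90 and 11.77 against 11.32 and 11.07 in non-clonogenic luminal cells, and 11.86 and 11.53 against 10.87 and 11.05 in ductal progenitors. In alveolar progenitors the gap was narrow, with 11.21 and 11.36 against 11.19 and 11.18, and in myoepithelial cells it was 10.64 and 11.15 against 10.22 and 9.81. The mean difference was -0.59 ± 0.10 (limma adjusted p = 0.00509). Ndufb9, which sits in the same arm, was lower by -0.52 ± 0.10 (limma adjusted p = 0.00693), with 10.93 and 10.95 in knockout against 11.48 and 11.55 in wild-type non-clonogenic luminal cells. Ndufa10 was lower by -0.35 ± 0.07 (limma adjusted p = 0.00870).

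The other complex I members called lower were Ndufb2 (-0.50), Ndufc1 (-0.53), Ndufs6 (-0.57), Ndufa9 (-0.48), Ndufa1 (-0.45), Ndufa11 (-0.52) and 3 core subunits that carry the flavin or the iron-sulphur clusters, Ndufv1 (-0.34), Ndufv2 (-0.38) and Ndufs1 (-0.34). Thus 3 of the 6 core and 10 of the 27 accessory subunits were called, with medians of -0.32 and -0.40.

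Outside complex I, Cox7a2 read 12.85 and 12.79 in wild-type against 12.42 and 12.50 in knockout non-clonogenic luminal cells, and 12.49 and 12.42 against 12.32 and 12.39 in ductal progenitors. In alveolar progenitors it read 12.15 and 12.36 against 11.94 and 12.05, and in myoepithelial cells 11.81 and 11.99 against 11.38 and 11.23. No knockout array reached a wild-type array of its population, and the mean difference was -0.33 ± 0.06 (limma adjusted p = 0.00419). Ndufa4, a subunit of complex IV despite its name, read 12.22 and 12.09 against 11.63 and 11.74 in non-clonogenic luminal cells and 12.04 and 11.96 against 11.52 and 11.60 in ductal progenitors. It read 11.80 and 11.98 against 11.53 and 11.61 in alveolar progenitors and 11.22 and 11.62 against 11.05 and 10.70 in myoepithelial cells, also without overlap. Its mean difference was -0.44 ± 0.08 (limma adjusted p = 0.00607), and Cox5a was the last of the 3 called in complex IV, at -0.43 ± 0.11 (limma adjusted p = 0.0370).

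In complex V the called members were Atp5g3 (-0.34 ± 0.07), Atp5o (-0.45 ± 0.11), Atp5k (-0.66 ± 0.17), Atp5j2 (-0.33 ± 0.09) and Atp5mpl (-0.42 ± 0.12), with limma adjusted p between 0.0110 and 0.0451. All 5 belong to the membrane part or the peripheral stalk (12 genes, median -0.31), and 0 of the 5 head and central-stalk genes were called (median -0.14). Atp5k, whose start-site stretch is printed above, read 11.55 and 11.09 in wild-type against 10.33 and 10.67 in knockout non-clonogenic luminal cells, and 9.60 and 10.67 against 9.51 and 8.96 in myoepithelial cells. Of the 3 genes that encode the same c-ring protein, only Atp5g3 was called, while Atp5g1 was at -0.49 ± 0.17 (limma adjusted p = 0.0941) and Atp5g2 at -0.19 ± 0.10 (limma adjusted p = 0.230).

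Sdha was called at -0.45 ± 0.08 (limma adjusted p = 0.00525). It read 11.75 and 11.77 in wild-type against 11.60 and 11.07 in knockout non-clonogenic luminal cells, 11.60 and 11.61 against 11.19 and 11.18 in ductal progenitors, 11.05 and 11.13 against 10.97 and 10.87 in alveolar progenitors, and 10.43 and 10.41 against 9.58 and 9.67 in myoepithelial cells. The probe set used is marked as one that can bind several transcripts, and the other 3 of Sdha did not follow it. The only other bright probe set (mean level 10.92) gave -0.01 ± 0.06. The remaining pair, with means of 5.23 and 5.21 near the arrays' lower quartile of 5.08 to 5.18, gave 0.35 ± 0.06 and 0.48 ± 0.11 and were called higher by limma (adjusted p = 0.00612 and 0.0160). The mean of all 4 probe sets was at 0.091, a positive value that rests on that dim pair. For the 22 called members there were 17 other probe sets, belonging to 14 of them. Of these, 14 had the same sign, 7 were also called lower, and 3 had the opposite sign, namely the dim pair of Sdha and a dim probe set of Ndufa11 at 0.13. All 12 other probe sets with a mean above 8 had the same sign, the one of Sdha by only -0.01. The remaining 8 called members have a single probe set.

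No member of complex III was called, although all 7 were negative, from -0.41 for Uqcr10 to -0.07 for the Rieske protein gene Uqcrfs1. Cycs read 11.56 and 11.02 against 10.56 and 11.02 in non-clonogenic luminal cells and 10.18 and 10.87 against 10.53 and 10.28 in myoepithelial cells, so its genotypes overlapped in the latter and it was not called.

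**Figure D4:**
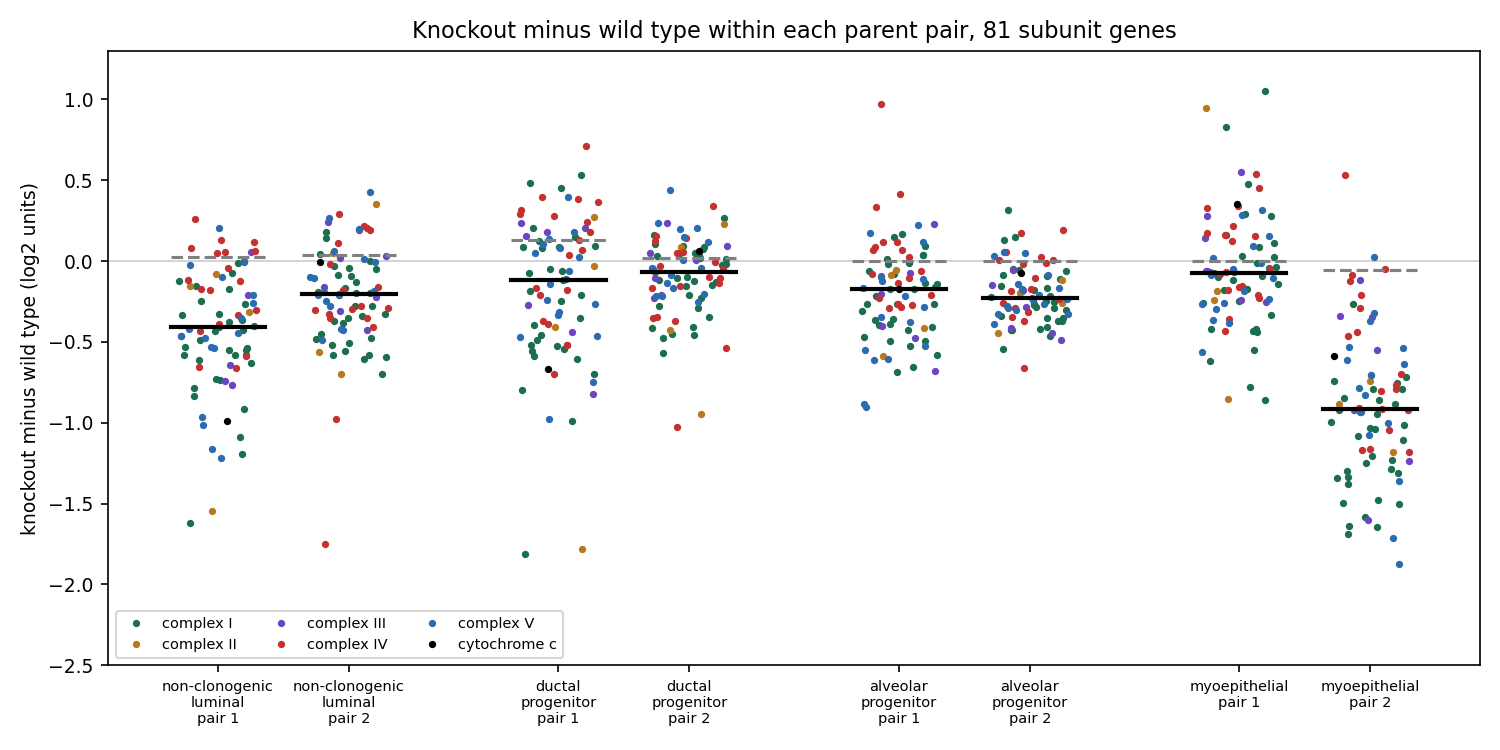
Each point is a member's knockout minus wild-type difference between mice of the same parents (log2 units), for both parent pairs in each population, with a solid line at the members' median and a dashed line at that of all genes. The members' medians are -0.41 and -0.21 in non-clonogenic luminal cells, -0.12 and -0.07 in ductal progenitors, -0.18 and -0.23 in alveolar progenitors, and -0.08 and -0.92 in myoepithelial cells.

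Between mice of the same parents, 20 members (24.7%) were lower in the knockout in all 8 differences, and 4.29% of all genes were. They were 11 of complex I, 1 of complex II, 0 of complex III, 4 of complex IV and 4 of complex V. In non-clonogenic luminal cells 71 of the 81 members were lower in the pair of mice 1 and 61 in the pair of mice 2, and in alveolar progenitors 62 and 69 were. In ductal progenitors 47 and 49 were. In myoepithelial cells the pairs were far apart, with 52 members lower in the first (median -0.08) and 79 in the second (median -0.92), which holds the array that stood apart. The corresponding medians of all genes lay between -0.06 and 0.13.

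Both knockout arrays lay below both wild-type arrays for 55 members in non-clonogenic luminal cells (22.1% of all genes did), 35 in ductal progenitors (22.5%), 49 in alveolar progenitors (23.4%) and 49 in myoepithelial cells (24.0%). For complex I these were 29, 19, 24 and 23 of 33 members. In ductal progenitors 19 members, 7 of them of complex I, had both knockout arrays above both wild-type arrays (23.5%), a smaller share than the 38.0% of all genes.

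Within single populations few members were called. In non-clonogenic luminal cells it was Ndufb2 alone (2.06% of all genes were called), at 11.48 and 11.29 in wild-type against 10.39 and 10.70 in knockout mice, a difference of -0.84 ± 0.19 (SE; limma adjusted p = 0.0488). At an unadjusted p under 0.05 there were 20 members in these cells, all lower (24.7%, against 17.1% of all genes). In ductal progenitors it was Ndufb8 alone (7.44% of all genes were called), at -0.73 ± 0.20 (limma adjusted p = 0.0445). Only 11 members had an unadjusted p under 0.05 in ductal progenitors, all lower (13.6%), a smaller share than the 28.1% of all genes. In alveolar progenitors limma called 0 members (0.62% of all genes), with 11 at an unadjusted p under 0.05, all lower (13.6%, against 9.50% of all genes), and 2 called when arrays were weighted. The smallest p of each complex there belonged to Ndufv1 (-0.47 ± 0.11; limma adjusted p = 0.111), Uqcrc1 (-0.54 ± 0.15; 0.181), Atp5b (-0.59 ± 0.20; 0.287), Cox7a2 (-0.26 ± 0.11; 0.429) and Sdhc (-0.43 ± 0.19; 0.483), for complexes I, III, V, IV and II.

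For Ndufv1 the alveolar values were 11.58 and 11.47 in wild-type and 11.05 and 11.05 in knockout mice. Uqcrc1 read 10.52 and 10.38 against 9.85 and 9.96, and Atp5b 11.78 and 11.59 against 10.90 and 11.29. The genotypes did not overlap for these genes, and the calls were missing after adjustment over all genes.

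In myoepithelial cells 5 members were called lower (6.17%) and 0 higher, where 1.01% of all genes were called. Ndufv1, which binds NADH and the flavin, read 11.34 and 11.46 in wild-type against 10.48 and 10.51 in knockout mice, a difference of -0.90 ± 0.11 (SE; limma adjusted p = 0.00467). Ndufv3 read 9.86 and 10.68 against 9.08 and 8.99 (-1.23 ± 0.24; limma adjusted p = 0.0318). Ndufa5 (-0.80 ± 0.15; 0.0285), Sdha (-0.80 ± 0.15; 0.0317) and Cox7a2 (-0.60 ± 0.11; 0.0246) were called too, and 46 members (56.8%) had an unadjusted p under 0.05, against 14.2% of all genes. The second bright probe set of Sdha was at -0.21 ± 0.12 here and was not called by limma. In all, the called members had 4 other probe sets with a mean above 8. All 4 had the same sign and 0 were called.

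The myoepithelial count rests on single arrays. Counts from fits that left out arrays are given without the share of all genes called, so a change in them may not be particular to the members. Without the array of wild-type mouse 2 only Ndufv1 was called, at -0.84 (limma adjusted p = 0.0218), and the median of the members moved from -0.47 to -0.18. Ndufv3 was then at -0.84 (limma adjusted p = 0.132), Sdha at -0.81 (0.108), Ndufa5 at -0.68 and Cox7a2 at -0.51 (0.109). Without the myoepithelial array of wild-type mouse 1, 52 members were called. Without either knockout myoepithelial array 1 was called, without either whole knockout mouse 0, and without a ductal array of the knockout, or a non-clonogenic luminal or alveolar array of the wild type, 2 or 3.

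Ndufv1 was the only member whose knockout difference was called as unequal between populations (limma F test, adjusted p = 0.0374; 0.667% of all genes were called). Its differences spanned 1.03, from -0.90 in myoepithelial cells to a positive value in ductal progenitors, where it read 11.22 and 11.44 in wild-type against 11.42 and 11.49 in knockout mice. The call was lost with the mouse as a fixed block (limma adjusted p = 0.0649) and without the myoepithelial array of wild-type mouse 2 (0.0527), and it was kept in 3 of the 20 fits that left out an array or a mouse. Of the other fits that left out arrays, that without the myoepithelial array of wild-type mouse 1 called 7 members and that without wild-type mouse 2 called 2.

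The count for the mean over populations depended on single mice, and here too the share of all genes called in each fit is not given. Without knockout mouse 2, 0 members were called, and without knockout mouse 1, 5 were, while the median stayed at -0.30 and -0.31. Without the array that stood apart 19 were called, 18 of them shared, with a median of -0.19. Without the other wild-type myoepithelial array 53 were called, and without the whole of wild-type mouse 1, 36. The counts were 13 or 14 without the ductal array of knockout mouse 1, the non-clonogenic luminal array of wild-type mouse 1, the myoepithelial array of knockout mouse 2 or the alveolar array of wild-type mouse 2. No fit called a member higher in this mean. With the parent pair as a block 30 were called, the 22 included.

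For the single luminal populations the same applies. In non-clonogenic luminal cells 4 to 6 members were called without wild-type mouse 2 or either wild-type myoepithelial array, and 0 in the other 14 fits whose count moved. In ductal progenitors 8 were called without wild-type mouse 2, 6 and 5 without the wild-type myoepithelial array of mouse 1 and 2, 2 without either knockout non-clonogenic luminal array, and 0 in the remaining 12 whose count moved.

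Cell-cycle genes moved with genotype beside the members. The mean of the 34 cell-cycle genes was 8.65 to 9.43 in wild-type and 6.73 to 7.13 in knockout non-clonogenic luminal cells, 8.70 to 9.38 against 6.68 to 7.08 in ductal progenitors, 8.19 to 9.14 against 6.83 to 7.09 in alveolar progenitors and 7.33 to 8.50 against 6.70 to 6.72 in myoepithelial cells. Of these genes 33 were called lower in the mean over populations, with a median of -1.82. The hormone-sensing luminal list had 4 of its 9 measured genes called higher. The alveolar list averaged 8.38 to 8.92 in knockout against 8.96 to 9.52 in wild-type ductal progenitors, where 4 of its 10 genes (Kit, Rspo1, Elf5 and Wfdc18) were called lower. The red-cell list (4 genes, 0 called in the mean) was lower in the knockout without overlap in 3 populations, at 8.60 to 8.67 against 8.74 to 8.85 in non-clonogenic luminal, 8.65 to 8.67 against 8.86 to 8.91 in alveolar and 8.43 to 8.47 against 8.77 to 8.98 in myoepithelial cells. The fibroblast list averaged 7.88 in ductal progenitors of wild-type mouse 1, the highest of all arrays, and the endothelial list 6.52 and 7.13 in knockout against 6.22 and 6.27 in wild-type myoepithelial cells. The part of any of these in the members' differences was not tested.

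The tissue-restricted forms are best described gene by gene. Cox6b2, usually found in testis, was the member with the smallest adjusted p in both comparisons of other luminal cells with alveolar progenitors. It read 8.08, 8.45, 8.19 and 7.47 in non-clonogenic luminal cells (wild-type mice 1 and 2, then knockout mice 1 and 2), 7.46, 7.88, 7.83 and 7.34 in ductal progenitors, 6.34, 6.75, 6.68 and 6.49 in alveolar progenitors, and 7.27, 7.93, 6.91 and 6.76 in myoepithelial cells. The alveolar arrays lay below all those of the other populations. The difference from alveolar progenitors was 1.48 ± 0.19 for non-clonogenic luminal cells (limma adjusted p = 9.91e-05) and 1.07 ± 0.19 for ductal progenitors (0.00169), and myoepithelial cells were higher too, by 0.66.

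Cox7a1, the heart and skeletal muscle form of the subunit that Cox7a2 provides elsewhere, was lowest in myoepithelial cells. It read 6.42, 6.44, 6.96 and 6.98 there against 8.52, 8.88, 8.65 and 7.12 in non-clonogenic luminal cells, a difference of -1.59 ± 0.33 (SE; limma adjusted p = 0.00193). Cox4i2, a lung form of Cox4i1, went the opposite way, with 7.11, 8.17, 7.44 and 7.25 in myoepithelial against 6.71, 6.85, 6.98 and 7.05 in non-clonogenic luminal cells (0.59 ± 0.18; limma adjusted p = 0.0184), while Cox4i1 was at -0.76. The highest of these values, 8.17, was on the array that stood apart. Cox6a2 and Cox7b2 were called higher in myoepithelial cells by 0.29 and 0.16, on narrow ranges of 7.23 to 7.76 and 4.30 to 4.67. Cox8b, Cox8c and Ndufa4l2 spanned less than 1 log2 unit over the 16 arrays and were not called in that comparison. No restricted form was called in the mean knockout difference, where their median was 0.03.

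**Figure D5:**
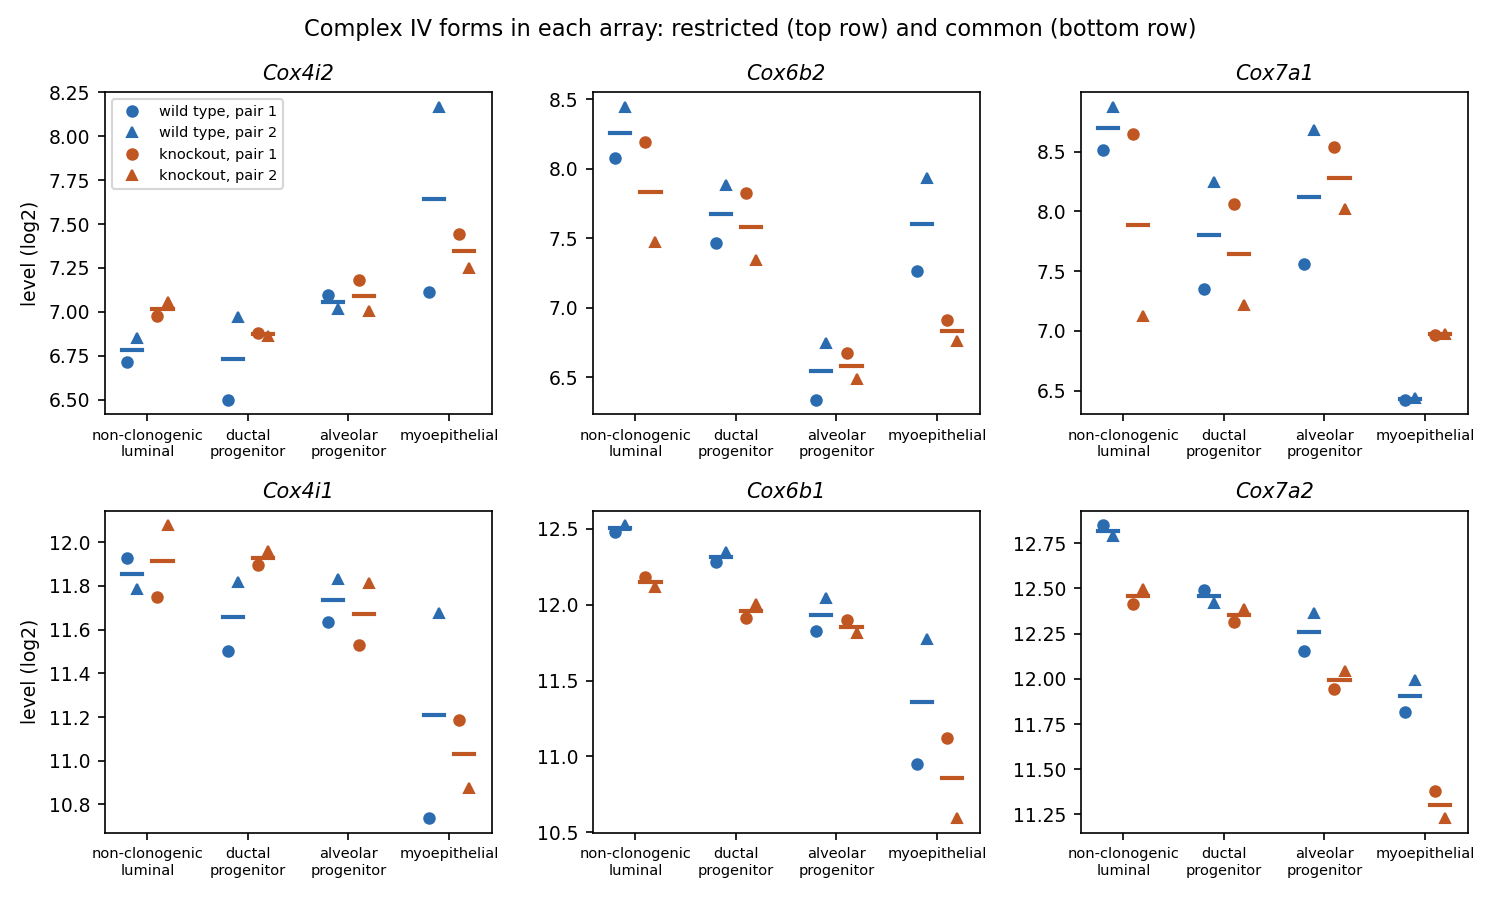
Values of common and tissue-restricted forms of complex IV subunits on every array (log2 expression), by population and genotype, with bars for group means (n = 2). Cox6b2 is lowest in the 4 alveolar arrays, at 6.34 to 6.75, and Cox7a1 lowest in myoepithelial arrays, at 6.42 to 6.98, and levels of different genes are not compared.

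Other genes of the pathway were counted from lists. Of all genes, 10.2% were called in the mean knockout difference and 7.04% were lower. Of the tricarboxylic acid cycle genes, which feed electrons to the chain, 6 of 14 were called lower in the mean knockout difference (median -0.22), led by Suclg2 (-0.67; limma adjusted p = 0.00161), Dlat (-0.62), Idh3a (-0.54) and Sucla2 (-0.41). Of the complex I assembly factors, 5 of 14 were lower (median -0.25), led by Acad9 (-0.59), then Nubpl, Ndufaf5 and Timmdc1. Of the list for complexes II to V, 6 were lower and 1 higher of 31 (median -0.20), with Cyc1, cytochrome c1 of complex III whose symbol lies outside the rule, at -0.43, Cmc2 at -0.94, Atpaf1 at -0.36 and Surf1 at 0.42. Of the mitochondrial import and membrane genes 3 of 20 were lower, among them the ADP/ATP carrier Slc25a5 (-0.57). Of the 17 regulators 2 were lower, Tfb1m (-0.53) and Lrpprc (-0.43), and of the 22 cytosolic ribosomal protein genes 0 were called (median -0.05).

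In myoepithelial against non-clonogenic luminal cells, 45.0% of all genes were called and 23.7% were lower. Of the 14 tricarboxylic acid cycle genes, 11 were lower in this comparison and 1 higher, with Suclg2 at -1.63 and Fh1 at -1.22. The complex I assembly factors were split, 6 lower and 4 higher of 14, with Acad9 higher by 2.04 and Ndufaf3 at -1.26. Of the list for complexes II to V 17 were lower and 3 higher, with Cmc1 at -2.11, Sdhaf4 at -1.87 and Coa3 at -1.64. Among the 17 regulators 3 were lower and 7 higher. The nuclear receptors Esrrb and Esrrg, of the ERR family, were at -2.81 and -1.93, and Myc and the coactivator Pprc1 at 2.18 and 1.05.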

How the data were processed

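RNA of 16 samples was hybridised to Affymetrix arrays after amplification of 15 ng by a whole-transcriptome kit and biotin labelling of 8 µg cDNA, per the labels' protocols. The deposited log2 values were made by the authors with RMA (background correction, quantile normalisation, probe-set summary), and limma was also used, per the submitters' processing notes, which give no versions. Of 45141 probe sets, 28898 had a single gene symbol, 551 several, 15588 none, and 104 were controls; the probe set with the highest mean stood for a gene. limma 3.58.1 (R 4.3.3, statmod 1.5.0) fitted 8 group means with mouse as a random block (correlation 0.0383) and a trended eBayes, and p-values were Benjamini-Hochberg adjusted over 17097 genes, with calls at 0.05. The model was tested on simulated data. Named members were those called with the smallest adjusted p, at most 8 in each direction; in a comparison without calls, the smallest p of each complex; per complex, those with the widest population range; and at most 4 genes of a list. The members and lists were chosen with earlier results of these data known. The number of arrays, 2 per group, limits precision, and the array gives no read depth. The 4 mice are separate animals. Same-numbered mice share both parents, per the labels; the difference between replicates 1 and 2 correlated over genes between genotypes at 0.07, -0.01, 0.06 and -0.04 in the 4 populations (non-clonogenic luminal, ductal, alveolar, myoepithelial). Alternatives were another block, another normalisation, other probe-set choices, a filter on low values, array weights and leaving out arrays or mice.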

Additional observations from a re-analysis of the deposited data

Results flagged for a closer look

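With 2 arrays per group, a far array could be looked for only among the 4 arrays of a population, both genotypes pooled, as a gap to its neighbour above Dixon's 95% critical value for 4 samples. Of 88 such sets of arrays, 5 held a far array, and chance gives about 1 in 20. The values are medians, over the genes named, of the deviation from each gene's own mean (log2). In myoepithelial cells the array of wild-type mouse 2 lay above the others for complex III, at -0.06 against -0.53 for the nearest, and for complex V, at 0.04 against -0.58. In non-clonogenic luminal cells the array of knockout mouse 1 lay below the others for complex III, at 0.05, and that of wild-type mouse 2 was far from the others for the tissue-restricted forms, at -0.08. In ductal progenitors the array of wild-type mouse 2 lay above the others for complex IV, at 0.19.

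The knockout difference of Ndufv1 was unequal between populations by a test of the difference itself (limma F test, adjusted p = 0.0374), being -0.90 in myoepithelial cells with the ductal values overlapping the wild type.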

How the results depend on the processing

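Only Sdha changed direction, to 0.0913 in the mean knockout difference with the mean of all its probe sets (adjusted p = 0.351), which rests on a dim pair of probe sets. Over the named members 641 values kept their side of the threshold, 259 lost it and 1 reversed. The share of all genes called under other settings is not given, so a change in count may not be particular to the members. Nor is the number of members tested with fewer probe sets. Counts of called members that moved by over 1.5 times were as follows, and the cause was not tested. With probe sets free of the s, x or a mark (fewer members tested) they were 0 in non-clonogenic luminal cells, ductal progenitors and myoepithelial cells, 11 in the mean knockout difference, 0 for unequal knockout effects, 36 for myoepithelial minus alveolar and 5 for ductal minus alveolar. Fitting only the arrays compared gave 0 in non-clonogenic luminal, ductal and myoepithelial cells, 43 for non-clonogenic luminal minus alveolar and 16 for ductal minus alveolar. Array weights gave 0 in ductal, 2 in alveolar and 1 in myoepithelial cells, and 40 for non-clonogenic luminal minus alveolar. The mean of probe sets gave 0 in ductal progenitors and 0 for unequal effects, new centring 0 in non-clonogenic luminal cells, and new quantile normalisation 9 in myoepithelial cells. Requiring a difference of 0.5 left 6 in the mean knockout difference, 37 for myoepithelial minus alveolar and 4 for ductal minus alveolar.

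Leaving out an array or a mouse gave 0 to 6 in non-clonogenic luminal cells, 0 to 8 in ductal progenitors, 0 in alveolar progenitors, 0 to 52 in myoepithelial cells, 0 to 53 in the mean and 0 to 7 for unequal effects. Between populations it gave 30 to 70 over all, 46 to 72, 28 to 70 and 8 to 66 for myoepithelial cells against non-clonogenic luminal, ductal and alveolar cells, 0 for non-clonogenic luminal minus ductal, 4 to 42 for non-clonogenic luminal minus alveolar and 1 to 16 for ductal minus alveolar. A group left with 1 array was assumed to vary like the others. Such a group added nothing to the shared estimate of spread, so counts could move for all genes. The shares of all genes called in these fits are not given.

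With the parent pair as a replicate block the counts were 1, 1, 0 and 5 in the single populations and 30 in the mean, and no other call count moved by over 1.5 times. With the mouse as a fixed block, 63 members differed between populations, 69, 61 and 54 were called for the myoepithelial comparisons, 23 and 9 against alveolar progenitors, and 0 for unequal effects.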
